A study of Mus musculus with 2 samples.

Results

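The cytosolic ribosomal protein genes were followed through mouse spermatogenesis in single-cell RNA-seq of adult C57BL/6 testis. Members were the genes whose symbol names a protein of the large (Rpl) or small (Rps) subunit, plus Rplp0, Rplp1, Rplp2 and Rpsa, and without the testis paralogs Rpl10l and Rpl39l. This gave 82 of the 31053 genes in the files, 50 of the large and 32 of the small subunit. The study compared 1 library from a wild-type (WT) testis with 1 library labelled Zfp541-/-, a line carrying a knockout of a zinc finger protein gene of male germ cells. Both came from adult C57BL/6 testis, dissociated by enzymes and sorted by flow cytometry for tetraploid germ cells, and were made with the 10x version 3 kit, which counts molecules (UMIs) near the 3' end of each transcript. The sample titles name whole testis, and neither the deleted part of Zfp541 nor the number of mice is given. Cells carry the authors' stage names: differentiated spermatogonia (Diff.Spg1 to Diff.Spg3), preleptotene (pre.L), leptotene (L), zygotene (Z), early, mid and late pachytene (eP, mP, lP), diplotene (D), first meiotic division (MI), round spermatids (RS.1 to RS.3) and elongated spermatids (ES).

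A cytosolic ribosome joins a large subunit, which forms peptide bonds and releases the chain through its exit tunnel, to a small subunit, which decodes the messenger RNA. Most of its proteins are present in equal number in the particle, and its messenger RNAs typically begin with a run of pyrimidines (the TOP motif) through which growth signals set their translation. In male meiosis the X chromosome is silenced from pachytene on, and several X-linked ribosomal protein genes have autosomal paralogs that are transcribed in the testis.

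Of the members, 78 lay on 18 autosomes and 4 on the X chromosome (Rpl10, Rpl36a, Rpl39 and Rps4x) in GENCODE M21 (GRCm38). The start regions of the X-linked members and of 3 autosomal paralogs are shown because the X-linked members had the widest stage profiles and the paralogs are their autosomal relatives. RPL10 joins the large subunit late in its assembly, RPL39 lines the exit tunnel, RPL36A sits near the exit site for transfer RNA, and RPS4X belongs to the small subunit. Each line gives RefSeq sequence of GRCm38.p6, 5' to 3', from 60 bases before to 30 bases after the listed start, with every run of at least 8 C or T in capitals.
Rpl10, chrX:74270756-74270845, strand plus: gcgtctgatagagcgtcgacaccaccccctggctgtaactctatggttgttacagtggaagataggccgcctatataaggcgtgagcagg
Rpl10l, chr12:66284372-66284461, strand minus: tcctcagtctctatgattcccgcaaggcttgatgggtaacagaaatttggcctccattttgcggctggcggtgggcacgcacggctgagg
Rpl39, chrX:37085193-37085282, strand minus: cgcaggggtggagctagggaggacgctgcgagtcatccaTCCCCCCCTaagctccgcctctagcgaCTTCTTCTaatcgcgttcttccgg
Rpl39l, chr16:10170168-10170257, strand plus: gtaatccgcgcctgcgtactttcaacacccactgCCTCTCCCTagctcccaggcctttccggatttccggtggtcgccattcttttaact
Rpl36a, chrX:134585594-134585683, strand plus: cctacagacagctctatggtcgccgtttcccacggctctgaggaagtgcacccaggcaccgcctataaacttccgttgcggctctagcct
Rpl36al, chr12:69184038-69184127, strand minus: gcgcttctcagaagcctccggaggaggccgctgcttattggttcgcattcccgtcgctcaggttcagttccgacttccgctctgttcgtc
Rps4x, chrX:102189362-102189451, strand minus: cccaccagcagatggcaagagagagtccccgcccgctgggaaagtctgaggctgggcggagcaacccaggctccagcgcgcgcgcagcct
The Rpl39 window lies wholly inside the gene's GENCODE M21 span (37082520 to 37085402 on the minus strand), so it is not upstream of that annotation's start. Rpl39 held 2 such runs and Rpl39l held 1, whereas Rpl10, Rpl10l, Rpl36a, Rpl36al and Rps4x held 0 in this window. Shorter runs were not counted, and a run counted wherever it lay in the window. The counts therefore do not show whether a TOP motif is present or absent. Over the 62 members with a listed start, 40 genes (64.5%) held a run of at least 8 C or T, against 36.9% of 27025 genes. In the whole 300-base regions, CCGGAAG on either strand was in 40.3% of members and 9.93% of all genes, AAGATGG on either strand in 16.1% and 7.28%, and TATAAA on the sense strand in 9.68% and 9.77%. Rpl10l had 1 exon in GENCODE M21, and Rpl10 had up to 7.

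Annotated cells numbered 8420 for WT and 8833 for the library labelled Zfp541-/-, and their UMIs summed to 108612781 and 119675250. With 1 library per genotype there is no replicate check, no p-value is given, and all intervals are 95% intervals for counting error only. The libraries shared 42 barcodes, 17 of them annotated in both. Zfp541 went against the label: its level in mP was 28.1 counts per 1000000 UMIs (CPM) in the WT library and 81.9 CPM in the library labelled Zfp541-/-. Tags from outside the deleted part check nothing, so the genotype was not checked here, and every direction is between the libraries as labelled. Depth differed too: the median mP cell had 18665 UMIs in the library labelled Zfp541-/- and 7945 UMIs in the WT library, and the median lP cell 23690 and 9210 UMIs. All 10 elongated spermatid markers had UMIs in WT eP, mP and lP, summing to 839, 291 and 229 CPM. In the library labelled Zfp541-/- 3, 4 and 5 of them did, summing to 2.80, 1.39 and 1.37 CPM. Prm1, Tnp1, Tnp2, Akap4 and Smcp were at 0 in each of these stages there. The part of this spermatid RNA in the ratios below was not tested. Spermatids are haploid and so lie outside the named gate.

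The members' share of all UMIs was highest in spermatogonia and lowest in spermatids. In the library labelled Zfp541-/- it was 17.7% in Diff.Spg1 (218 cells), 16.1% in Diff.Spg2, 16.5% in Diff.Spg3, 11.7% in pre.L, 11.9% in L, 13.9% in Z, and then 12.1% (eP), 11.8% (mP) and 10.8% (lP). The sharpest drop between neighbours there was from Diff.Spg3 to pre.L, a log2 ratio of -0.49 (-0.50 to -0.48), and the share was higher again in Z than in L by 0.22 (0.21 to 0.22). From Diff.Spg3 to pre.L, 18 of 81 members were at least 2-fold lower, against 21.1% of all genes, and 2 were at least 2-fold higher, against 15.8%. From L to Z, 62 of 81 members were above 0, with a member median of 0.26 on the log2 scale against -0.19 over all genes, and none reached 2-fold in either direction (7.93% of genes higher, 14.3% lower).

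In the WT library the share was 11.7% in eP (230 cells), 10.3% in mP, 9.31% at lP, 8.46% in D, 7.01% in MI, 7.53% in RS.1, 6.50% in RS.2, 4.66% in RS.3 and 3.85% in ES (111 cells). Each stage was lower than the one before except RS.1, which was above MI by 0.10 (0.10 to 0.11) on the log2 scale. The last step depended on the denominator. The 10 elongated spermatid markers summed to 71290 CPM in RS.3 and 338925 CPM in ES, and with their UMIs left out, an alternative added after the data were seen, the share was 5.01% in RS.3 and 5.82% in ES, higher by 0.22 (0.20 to 0.23). From MI to RS.1, 54 of 77 members were above 0 and 23 below, with a member median of 0.12 against -0.13 over all genes. None reached 2-fold in either direction there (14.2% of all genes higher, 6.51% lower). At the step from RS.2 to RS.3, 76 of 77 members were lower, 5 of them at least 2-fold against 26.8% of all genes, and none was at least 2-fold higher against 19.1%. The member median of -0.51 lay beside an all-gene median of -0.54. The WT library had only 8 to 39 cells in each stage from Diff.Spg1 to Z. There the share was 22.6%, 19.9%, 18.4%, 13.8%, 13.1% and 13.8% in stage order, and no ratio to the other library was taken. The 13 D cells of the library labelled Zfp541-/- had 10.1%.

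**Figure D1:**
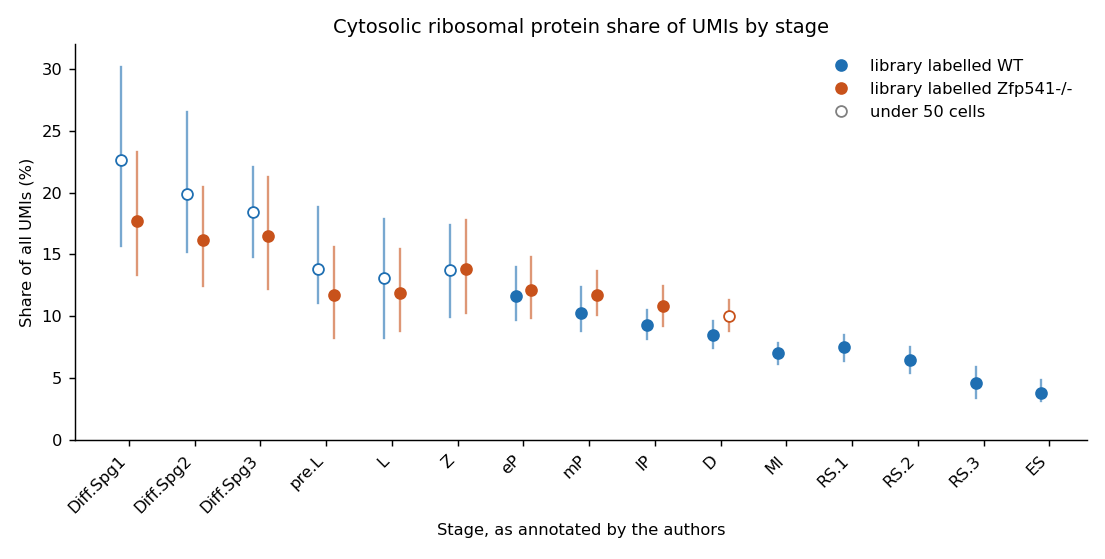
Share of all UMIs from the 82 members (y axis, percent) by stage (x axis) in each library; points are stage totals, bars run from the 5th to the 95th percentile of single cells, and hollow points are stages with under 50 cells. Over the filled points the share runs from 17.7% in Diff.Spg1 of the library labelled Zfp541-/- to 3.85% in WT elongated spermatids, the hollow WT Diff.Spg1 point lies at 22.6%, and the bars show spread between cells, not between mice.

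A share is relative to the other RNA of a stage, so the number of member UMIs per cell was also counted. The median cell of the library labelled Zfp541-/- had 1623 member UMIs in Diff.Spg1, 282 in L and 2554 in lP, so the lP cells held more of these molecules at a smaller share. The median WT cell had 392.5 in eP, 961 in MI, 914 in RS.3 and 245 in ES. The count was thus lower in ES than in RS.3, whichever denominator the share has. Counts per cell depend on the depth of each library and on all UMIs per cell, which differed by stage. The median cell of the library labelled Zfp541-/- had 9280.5 UMIs in Diff.Spg1, 2276 in L and 23690 in lP. The median WT cell had 3275 UMIs in eP, 13673.5 in MI, 19631 in RS.3 and 6480 in ES.

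Levels differed widely between members, on the CPM scale that counts molecules of a 3' kit and needs no correction for length. In WT mP, 75 of 82 members reached 100 CPM and 41 reached 1000 CPM, with a median member at 999 CPM. The members with the highest mean level over stages of at least 50 cells were Rpl13 (3531 CPM in the WT library, 3968 in the library labelled Zfp541-/-), Rpl41 (3332 and 3418), Rps20 (3034 and 3695), Rps24 (2796 and 4784) and Rpl32 (2027 and 3405). Rplp0, the base of the stalk that recruits translation factors, completed the highest 6 in the WT library at 2904 CPM. Rps29 did so in the other library at 4530 CPM. At the low end Rpl3l, the striated muscle paralog of Rpl3, was at 8.95 CPM or less in every stage of at least 50 cells and was too low for any ratio. Rpl13a was at 16.7 CPM in WT lP. Ribosomal protein genes have many near-identical processed copies, so reads can be lost or split between copies and the level of such a gene is uncertain.

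The members did not keep fixed proportions. As a share of all member UMIs, over stages of at least 50 cells, Rpl38 ranged only from 1.14% to 1.84%, Rpl37a from 1.62% to 2.74% and Rps24 from 2.71% to 4.94%. Among members averaging at least 100 CPM, Rpl36a and Rpl39 spanned the most, followed by Rpl5, a carrier of 5S ribosomal RNA into the large subunit, which went from 0.479% in Diff.Spg1 of the library labelled Zfp541-/- to 0.0122% in WT ES. The WT stages of at least 50 cells begin with eP. Among them, 61 members peaked in eP and 60 were lowest in ES, by total UMIs. The same counts were not taken over all genes, so they are not given as a trait of the members. The 61 include Rps4x and Rpl36a, whose WT eP level was only 2.22 CPM. From RS.3 to ES the all-gene median was -1.18 on the log2 scale, below the member median of -0.46. Rps20, a protein of the small subunit head, was highest in ES at 3598 CPM, close to its 3428 CPM in mP. Its lowest WT level was 2157 CPM in RS.3.

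**Figure D2:**
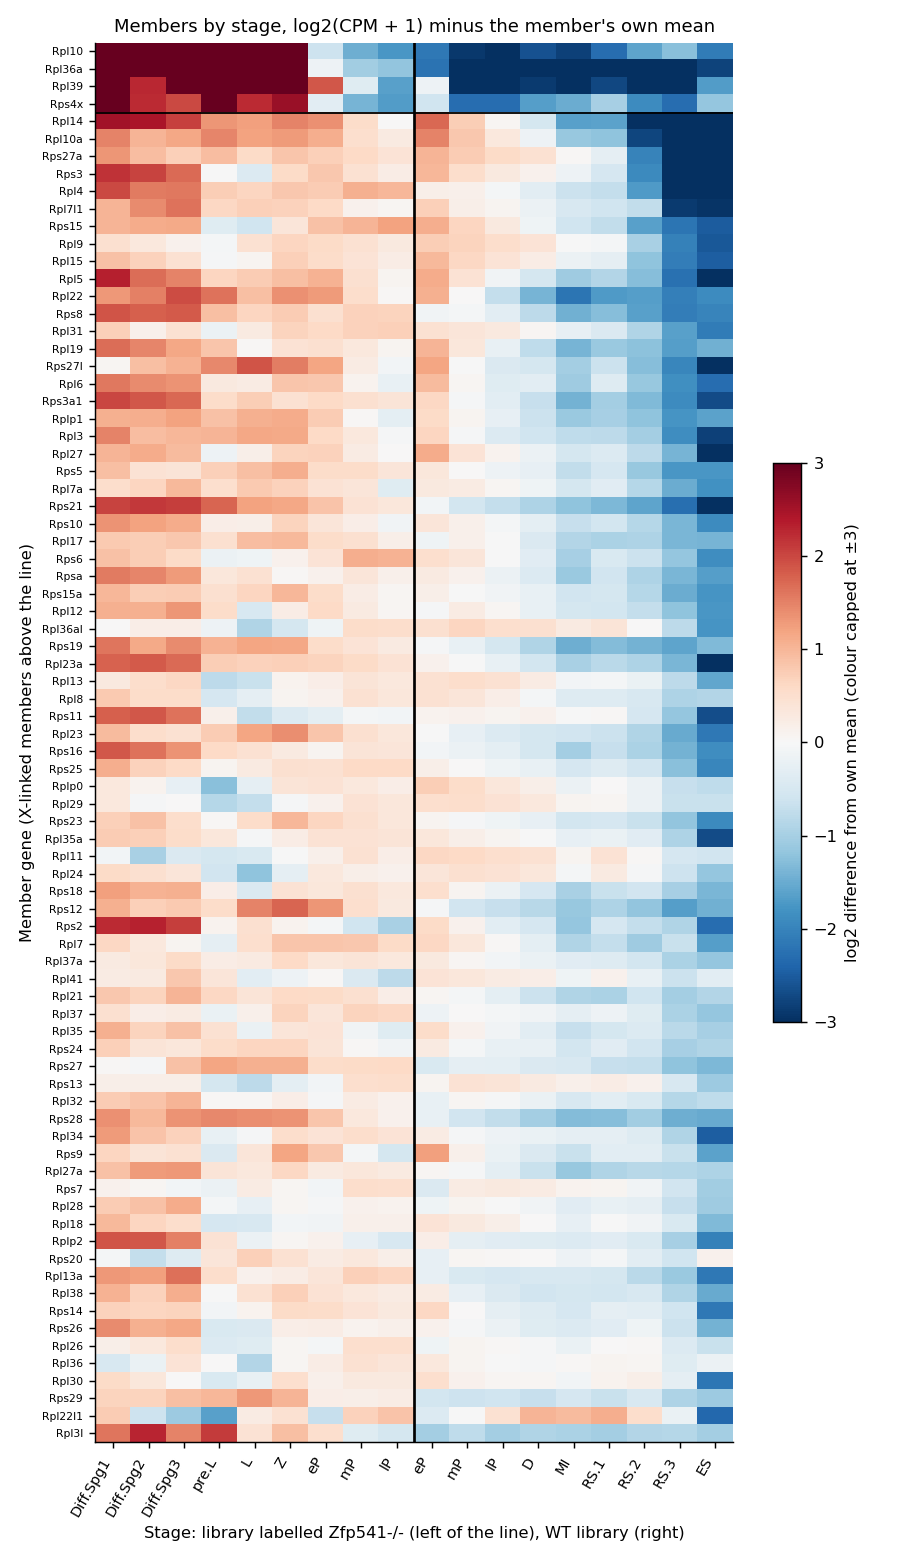
Each row is a member named here and each column a stage of at least 50 cells; colour is log2(CPM + 1) minus the member's own mean over these stages, capped at 3 in either direction, with autosomal members ordered by WT RS.3 minus mP. The 4 X-linked members at the top are highest in the columns before pachytene, and most autosomal rows turn blue in WT RS.3 and ES.

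The small subunit's part in the pool differed by stage and by library. It was 47.4% of member UMIs in Diff.Spg1, 50.7% in L and 43.4% in lP of the library labelled Zfp541-/-. Across WT stages it stayed between 38.4% and 39.8% from eP to ES. It was higher in the library labelled Zfp541-/- than in the WT library in mP, at 42.8% (42.8 to 42.9%) against 39.1% (39.0 to 39.2%), and in lP, at 43.4% (43.3 to 43.4%) against 39.1% (39.0 to 39.2%). The few WT cells before eP had 43.3% to 47.2%.

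Between the ends of the series in the library labelled Zfp541-/-, the members' share in lP was lower than in Diff.Spg1, at a log2 ratio of -0.71 (-0.71 to -0.70). Of 81 members with at least 10 CPM in the higher stage, 31 were at least 2-fold lower, where 43.2% of all genes were, and 0 were at least 2-fold higher, where 24.7% were. The member median was -0.82 against -0.61 over all genes. By subunit, 17 of 49 large and 14 of 32 small subunit members were at least 2-fold lower. The 4 X-linked members had the lowest ratios. Rpl36 lay furthest above 0, at 2585 CPM against 1439 CPM, a log2 ratio of 0.85 (0.79 to 0.90). Rps27, a zinc-binding protein of the small subunit, followed at 0.57, then Rpl36al at 0.53 and Rps7 at 0.38. Median-of-ratios scaling would raise every one of these ratios by 0.60 on the log2 scale.

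In the WT library from mP to RS.3, all 77 members with enough counts were lower by total UMIs, 50 of them at least 2-fold, where 50.6% of all genes were. None was at least 2-fold higher, where 31.2% of all genes were. The member median was -1.26 against -1.05 over all genes, and scaling by the median of ratios adds 1.18 to every ratio, leaving a member median of -0.08. The order among members does not depend on that scaling. Rpl14 had 664 CPM in mP and 25.7 CPM in RS.3, a log2 ratio of -4.69 (-4.90 to -4.49). Rpl10a, of the stalk that moves with leaving transfer RNA, had 940 CPM and 47.3 CPM. Rps27a, made as a fusion with ubiquitin, had 2617 CPM and 135 CPM, and Rps3, at the entry of messenger RNA, had 672 CPM and 47.3 CPM. These 4 were the lowest ratios. At the other end Rpl22l1 had 581 and 514 CPM, Rps29 had 1768 and 1439 CPM, Rpl30 had 1672 and 1258 CPM and Rpl36 had 2104 and 1548 CPM; by the median of ratios these 4 would lie above 0. In the next step, from RS.3 to ES, 15 of 76 members were at least 2-fold lower, where 54.8% of all genes were, and 0 at least 2-fold higher, where 6.63% were. The member median there was -0.46 against -1.18 over all genes.

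The X-linked members of the library labelled Zfp541-/- had their highest levels before pachytene and their lowest in lP, with peaks at different stages. In the library labelled Zfp541-/-, Rps4x was at 277 CPM in Diff.Spg1, 21.8 in Diff.Spg2, 18.1 in Diff.Spg3, 40.7 in pre.L, 22.0 in L, 28.1 in Z, 2.91 in eP, 0.86 in mP and 0.51 in lP. From Diff.Spg2 to Z it was thus at 40.7 CPM or less. Rpl39 was at 215 CPM in Diff.Spg1, 124 in Diff.Spg2, 793 in Diff.Spg3, 1618 in pre.L, 1002 in L, 552 in Z, 93.8 in eP, 19.1 in mP and 7.40 in lP. Its peak was in preleptotene, after that of the other 3. Rpl36a was at 746 CPM in Diff.Spg1, 838 in Diff.Spg3, 508 in pre.L, 167 in Z, 12.5 in eP and 5.57 in lP. Rpl10 was at 239 CPM in Diff.Spg1, 359 in Diff.Spg3, 336 in pre.L, 114 in Z, 8.27 in eP and 3.24 in lP.

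Summed over the cells from Diff.Spg1 to Z, the 4 X-linked members had 1553 CPM in the library labelled Zfp541-/- and 1455 CPM in the 122 WT cells of these stages. In mP the sum was 30.4 CPM and 2.47 CPM, and in lP 16.7 CPM and 1.75 CPM, with the library labelled Zfp541-/- the higher in both. In WT cells from D to ES the sum was 4.72 CPM. The 4 genes were not in the same proportions throughout the library labelled Zfp541-/-: Rpl39 made 42.1% of their UMIs before pachytene, 79.9% in eP, 63.0% in mP and 44.3% of them in lP. The cells before pachytene were 3210 in that library and 122 in the WT library, and the part of RNA released from them in these low levels was not tested.

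The autosomal testis paralogs had the opposite profile. Rpl39l, which replaces RPL39 in the exit tunnel of testis ribosomes, was at 502 CPM in Diff.Spg1, 189 in pre.L, 777 in Z, 1221 in eP, 984 in mP and 927 in lP of the library labelled Zfp541-/-. In the WT library it was at 1572 CPM in eP, 1195 in mP, 957 in lP, 1104 in D, 1226 in MI, 1247 in RS.1, 880 in RS.2, 486 in RS.3 and 80.1 in ES. Rpl10l, a retrogene of Rpl10, was at 62.1 CPM in Diff.Spg1, 13.8 in pre.L, 130 in eP and 92.7 in lP of the library labelled Zfp541-/-. WT levels were 171 CPM in eP, 85.2 in D and 8.24 in ES. Between libraries in lP, Rpl39l had a log2 ratio of -0.05 (-0.08 to -0.01) and Rpl10l of -0.04 (-0.15 to 0.08). Rpl36al, the autosomal paralog of Rpl36a and itself a member, was at 306 CPM in Diff.Spg1, 163 in L and 441 in lP of the library labelled Zfp541-/-, and at 435 CPM in WT lP.

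Paralog pairs with both genes on autosomes also changed their balance. Rpl22, a large subunit protein, was at 1322 CPM in Diff.Spg1, 1302 in eP and 549 in lP of the library labelled Zfp541-/-, while its paralog Rpl22l1 was at 993, 362 and 1072 CPM. WT cells had Rpl22 at 1115 CPM in eP, 537 in mP, 322 in lP, 202 in D and 115 in MI. Over the same stages Rpl22l1 was at 446, 581, 810, 1185 and 1132 CPM, so the paralog was the higher from mP. It was still the higher in RS.3, at 514 against 127 CPM. In ES, of 111 cells, it was at 114 against 142 CPM, a small gap for which no counting interval was taken. Rps27 and Rps27l were at 1454 and 545 CPM in Diff.Spg1, 2970 and 1954 CPM in L, and 2159 and 498 CPM in lP of the library labelled Zfp541-/-. Rps27l was above Rps27 in WT eP, at 1203 against 1036 CPM, but not in WT lP, at 387 against 1171 CPM. Rpl7l1, a biogenesis-related relative of Rpl7, was at 136 CPM or less in all stages of at least 50 cells, from Diff.Spg3 of the library labelled Zfp541-/- down to 4.71 CPM in WT ES.

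**Figure D3:**
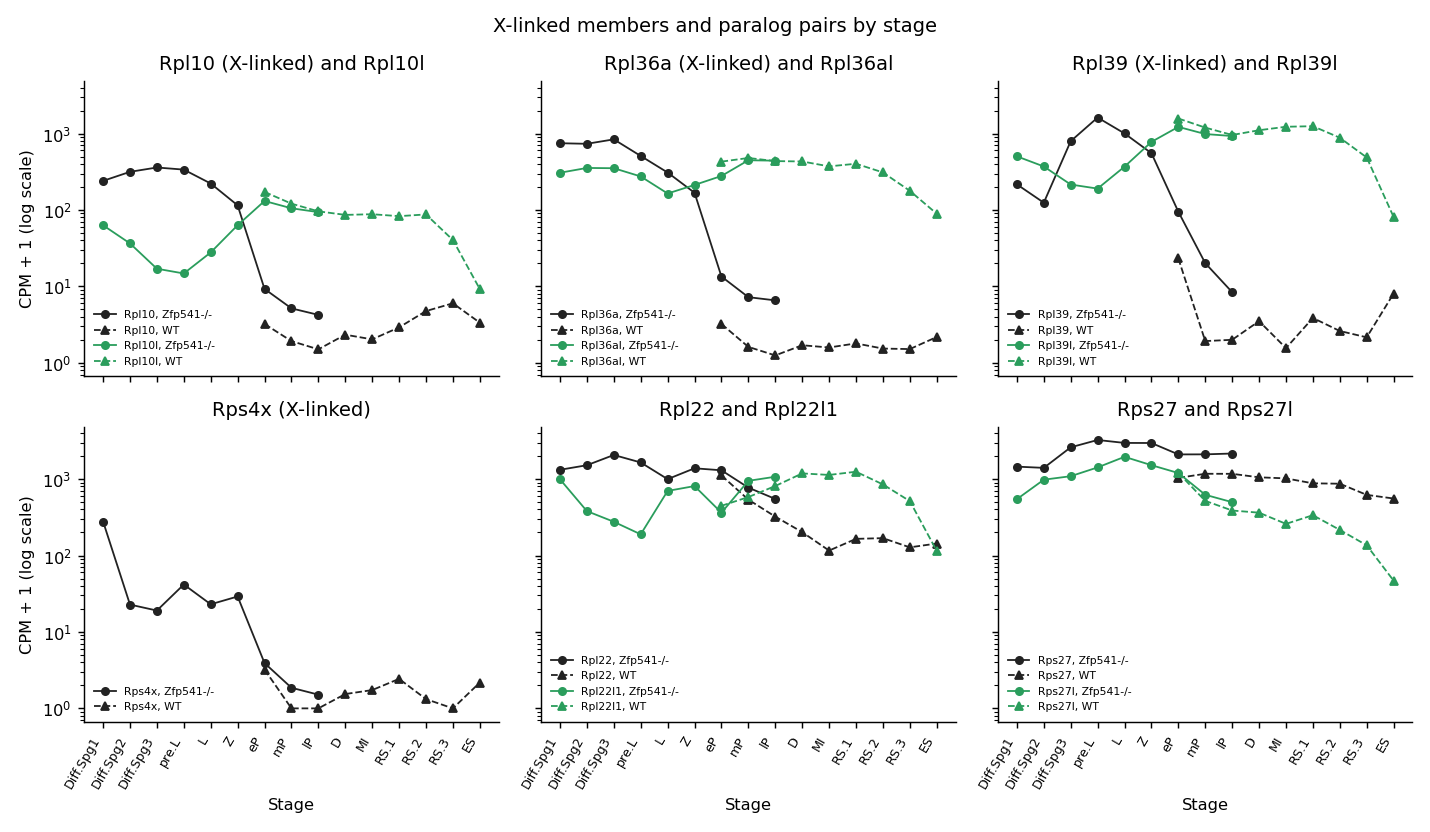
CPM + 1 on a log axis by stage for the X-linked members and 5 paralog pairs, with solid lines and circles for the library labelled Zfp541-/- and dashed lines and triangles for the WT library, in stages of at least 50 cells. Rpl10, Rpl36a, Rpl39 and Rps4x drop to single digits of CPM by lP, while Rpl39l reaches 1221 CPM in eP.

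Between the libraries, the members' share was higher in the library labelled Zfp541-/- in both mP and lP, by a small amount. In mP the shares were 11.8% and 10.3%, a log2 ratio of 0.19 (0.19 to 0.20), and in lP 10.8% and 9.31%, a ratio of 0.22 (0.22 to 0.22). Of 78 members with enough counts in mP, 55 were above 0, 3 were at least 2-fold higher, where 15% of all genes were, and 0 at least 2-fold lower, where 10.6% were. In lP, 53 of 77 were above 0, 5 were at least 2-fold higher (17.4% of all genes) and 1 at least 2-fold lower (14.3%). The member median was 0.25 in mP and 0.24 in lP, against all-gene medians of 0.15 and 0.11. Median-of-ratios scaling shifts every ratio by -0.15 in mP and -0.11 in lP, which leaves share ratios of 0.045 and 0.11. Within each of the 4 mP clusters the share ratio lay between 0.14 and 0.25, and within the 3 lP clusters between 0.26 and 0.28. In cells of 8000 to 16000 UMIs, a range chosen after the depths were seen, it was 0.26 in mP and 0.20 in lP. The median mitochondrial percentage was also higher in the library labelled Zfp541-/-, at 3.08% against 1.48% in mP and 2.22% against 1.26% in lP. Its part in these ratios was not tested.

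Rpl41 and Rps2 stood lowest in both stages. Rpl41, a very short peptide at the face between the subunits, was at 2390 CPM in the library labelled Zfp541-/- and 4135 CPM in the WT library in mP, and at 1873 and 3858 CPM in lP, a log2 ratio of -1.04 (-1.06 to -1.02). Rps2, near the entry of messenger RNA, was at 536 and 900 CPM in mP and 417 and 658 CPM in lP, a ratio of -0.66 (-0.70 to -0.61). Rpl24 and Rpl10a followed in mP at -0.31 and -0.30, and Rpl7a and Rps9 in lP at -0.40 and -0.34. Rpl10a's ratio was 0.0061 in mP cells of 8000 to 16000 UMIs.

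The highest ratios came from both subunits. Rps12, of the small subunit head, was at 1224 CPM in the library labelled Zfp541-/- and 574 CPM in the WT library in mP, a log2 ratio of 1.09 (1.05 to 1.13), and at 1057 and 528 CPM in lP, a ratio of 1.00. Rps21 was at 1057 and 534 CPM in mP (0.98) and at 983 and 474 CPM in lP (1.05). Rps6, the small subunit target of S6 kinase, was at 918 and 444 CPM in lP (1.05, 1.00 to 1.10). Rpl4, whose long loop reaches the exit tunnel, was at 536 and 260 CPM in lP (1.04, 0.98 to 1.11). Rpl13a had ratios of 1.22 and 1.20 on levels of 40.3 CPM or less, and Rpl39 in mP had 4.29 on 19.1 CPM against 0.93 CPM, from 9 WT UMIs. By subunit, the median ratio in mP was 0.38 for 31 small and 0.09 for 47 large subunit members, and in lP 0.47 for 31 small and 0.16 for 46 large. In each stage 25 of 31 small subunit members were above 0, against 30 of 47 and 28 of 46 large subunit members.

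**Figure D4:**
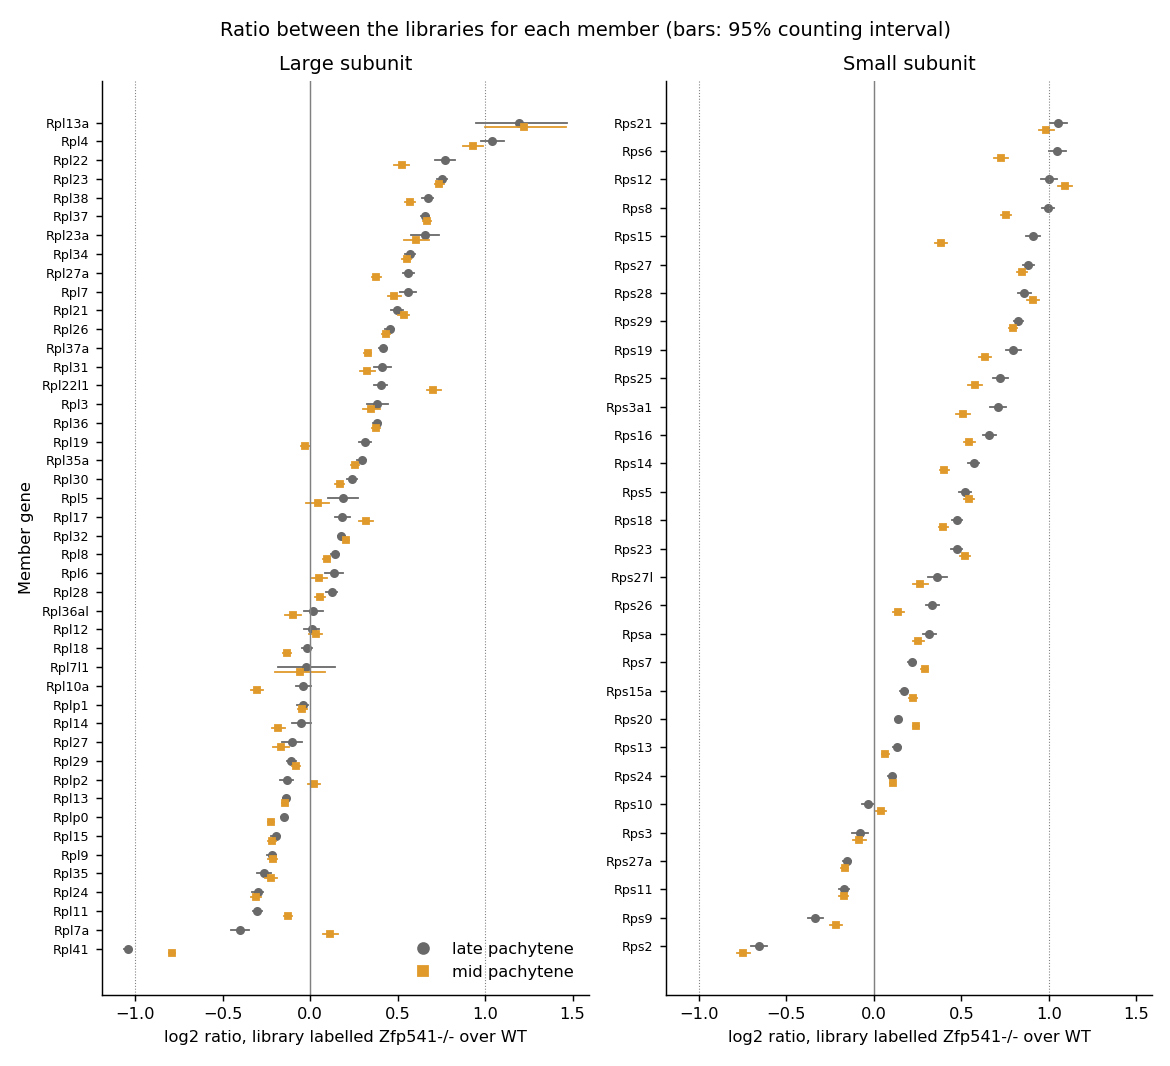
Log2 ratio of the library labelled Zfp541-/- over the WT library (x axis) for members named here with at least 10 CPM in lP (rows), with circles for lP, squares for mP, bars for the 95% counting interval and dotted lines at 2-fold. Rpl41 lies at -1.04 in lP, and the small subunit panel lies further to the right, with lP medians over all members tested of 0.47 against 0.16.

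Members too low for a ratio in mP were Rpl10, Rpl36a, Rps4x and Rpl3l. Rps4x had 42 UMIs in mP of the library labelled Zfp541-/- and 0 in WT mP, at least 2.79-fold higher when 3 counts are allowed in the WT library. Rpl36a had 304 and 6 UMIs and Rpl10 had 203 and 9. In lP the same genes and Rpl39 were too low, with 24 and 0 UMIs for Rps4x, 261 and 2 for Rpl36a, 152 and 4 for Rpl10 and 347 and 8 for Rpl39.

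Early pachytene was compared only within clusters, because its clusters may not carry the stage's own markers. The libraries also mixed its clusters 12 and 16 differently. The share ratio was 0.04 (0.02 to 0.05) in cluster 12 and 0.07 (0.06 to 0.09) in cluster 16, and median-of-ratios scaling, a shift of -0.14 and -0.31, turned both to -0.10 and -0.24. In cluster 12, 3 of 80 members were at least 2-fold higher, where 14.4% of all genes were, and 0 lower (8.77%). Of these, Rps21 was at 1437 CPM in the library labelled Zfp541-/- and 657 CPM in the WT library, whereas Rpl36a was at 20.0 against 6.70 CPM and Rpl10 at 11.8 against 3.35 CPM. These rest on 2 and 1 WT UMIs, with intervals of -0.31 to 4.64 and -0.72 to 7.14 that include 0, and at a minimum of 50 CPM 1 member was at least 2-fold higher. In cluster 16, 4 of 78 were at least 2-fold higher (20.4% of all genes) and 0 lower (8.7%). Rps12 was at 1951 and 686 CPM, Rps28 at 2067 and 942 CPM and Rps27 at 2079 and 985 CPM. Rpl39 was at 38.3 CPM against 0 UMIs, at least 7.67-fold higher. Rps2 was among the 4 lowest in both clusters, at -0.53 and -0.70, and so were Rpl19 (-0.66 and -0.47), Rpl11 and Rps9 in cluster 12, and Rpl36al and Rpl18 in cluster 16.

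Genes around the ribosome were followed as lists. Fau and Rack1, ribosomal protein genes that the symbol rule does not match, were both below 0 between libraries, with Fau at 1621 against 1906 CPM in lP and Rack1 at 210 against 267 CPM. Of 14 translation factor and other TOP messenger RNA genes, 12 were above 0 in mP and in lP and 3 were at least 2-fold higher, where 15% and 17.4% of all genes were. The list's medians were 0.62 and 0.59, against all-gene medians of 0.15 and 0.11. Eef1a1, which brings aminoacyl transfer RNA, was at 2254 against 1274 CPM in lP. Pabpc1, which binds poly(A) tails, was at 1662 against 990 CPM and Tpt1 at 900 against 599 CPM, but Naca, of the nascent chain complex, was at 676 against 768 CPM. The stalk genes Rplp0, Rplp1 and Rplp2 together were at 5001 against 5451 CPM in lP.

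Of 20 ribosome biogenesis genes with enough counts, 15 were above 0 in mP and 16 in lP, where 5 were at least 2-fold higher (17.4% of all genes) and the median was 0.55 (0.11 over all genes). Ncl, encoding the nucleolar protein nucleolin, had by far the widest gap of those named, at 777 against 74.8 CPM in mP and 710 against 33.1 CPM in lP. Npm1, nucleophosmin, was at 931 against 732 CPM in lP, Wdr12 at 567 against 324 CPM and Nop10 at 636 against 982 CPM. Among the regulators of ribosomal protein synthesis 3 had enough counts in lP and all were above 0, including Larp1, which binds TOP messenger RNAs, at 322 against 209 CPM, and Mtor, the growth kinase, at 56.3 against 40.0 CPM. Mitochondrial ribosomal protein genes went the other way by their medians, -0.14 in mP and -0.05 in lP, with 43 of 77 below 0 in lP. Mrpl54 was at 191 against 694 CPM in lP and Mrpl20 at 496 against 590 CPM. No list was tested.

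Along the stages the lists parted as well. In the library labelled Zfp541-/- the summed level of biogenesis genes was 7943 CPM in Diff.Spg1 and 3700 CPM in lP, while mitochondrial ribosomal protein genes were at 10305 and 10437 CPM. In the WT library from mP to RS.3, biogenesis genes went from 2821 to 716 CPM, mitochondrial ribosomal protein genes from 12558 to 5626 CPM and the TOP messenger RNA list from 6200 to 4617 CPM. Beside these, the cytosolic members had -1.14 (-1.15 to -1.14) on the log2 scale, between -1.98 for biogenesis and -0.43 for the TOP list, and close to -1.16 for the mitochondrial list. These are ratios of sums. The medians over genes were -1.26 for the cytosolic members, -2.88 for biogenesis, -2.06 for the mitochondrial list and -0.58 for the TOP list, against -1.05 over all genes. Of 13 TOP list genes with enough counts, 4 were above 0 and 9 below.

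**Figure D5:**
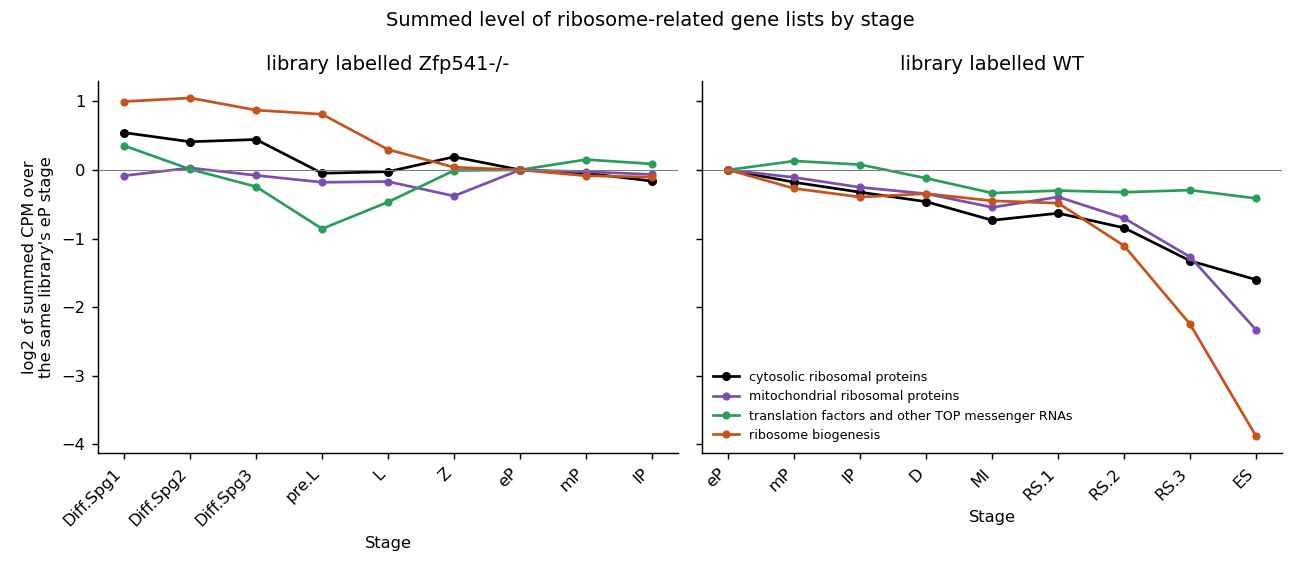
Log2 of each list's summed CPM over the same library's eP value (y axis) by stage (x axis), for the library labelled Zfp541-/- (left) and the WT library (right), in stages of at least 50 cells. In WT RS.3 against mP the biogenesis list is lower by a log2 ratio of -1.98 and the cytosolic members by -1.14.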

How the data were processed

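Single-cell RNA-seq libraries of 1 WT and 1 library labelled Zfp541-/- were used. Tools named in the submitters' processing notes are Cell Ranger 3.1.0 and Seurat 3.2.0, with the build mm10, without settings. The deposited matrices hold whole-number UMI counts per gene and barcode, not normalised. Per the file headers, the deposited cell table lists each cell's cluster, stage and the percent of its UMIs from mitochondrial and from ribosomal genes. The gene set behind the deposited ribosomal percent is not stated; its median over cells was 8.96% in the WT library and 13.1% in the other, where the members gave 7.93% and 11.9%, so the share was recomputed.

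Sums of UMIs by gene, stage and library (Python 3.11.15, NumPy 2.4.6, SciPy 1.17.1, pandas 2.3.3, matplotlib 3.10.9) were scaled to 1000000 UMIs (CPM). Log2 ratios were taken after adding 0.5 counts to each sum, keeping genes with 10 CPM or more in the higher group and stages of at least 50 cells. Shares have exact Clopper-Pearson intervals and ratios exact conditional binomial intervals, at 95%. The code was tested on simulated counts. Cells are not replicates, so no test was run. UMIs from 3' tags count molecules. The annotated cells are the authors' selection, no doublet caller was run, and leaving out the 5% of cells with the most UMIs was an alternative.

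Stages were used as the authors named them. Among the 10 genes of highest fold, the mP and lP clusters had 0 pachytene markers and 0 of other stages, and eP clusters 12 and 16 had 0 of their own and 1 of another stage each. The RS.2 cluster had 0 of its own and 1 pachytene marker. Named genes were, by rule, the X-linked members, the paralogs, the 6 highest members, the 4 highest and 4 lowest ratios per comparison, the 3 widest and 3 narrowest shares of the pool, and the 4 highest genes of each other list; the ES level of Rps20 and the steps between neighbouring stages were picked after their values were seen. The members and lists were chosen with earlier results of these data known. A few genes are counted in the sums but not reported here by name.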

Additional observations from a re-analysis of the deposited data

Results flagged for a closer look

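Between mP and lP, Rps15, Rps26, Rps13 and Rps7 of the small subunit moved in opposite directions in the libraries, each with a counting interval that left out 0 in both. The difference between the libraries was not tested, since each genotype has 1 library. Rps15, next to the decoding centre of the small subunit, was lower in lP than in mP in the WT library, at 627 against 802 CPM, a log2 ratio of -0.35 (-0.41 to -0.30). In the library labelled Zfp541-/- it was higher, at 1178 against 1046 CPM, a ratio of 0.17 (0.15 to 0.19). The other 3 moved little. Rps26 had -0.14 in the WT library and 0.06 in the library labelled Zfp541-/-, Rps13 had -0.05 and 0.02, and Rps7 had 0.05 and -0.02. Against the all-gene medians of this step, -0.063 in the WT library and -0.097 in the other, Rps15 (-0.29 and 0.27) and Rps26 (-0.07 and 0.15) still moved in opposite directions, but Rps13 (0.02 and 0.12) and Rps7 (0.11 and 0.07) were above the median in both. The lP clusters 0, 5 and 22 held 486, 107 and 234 WT cells and 959, 884 and 102 cells of the library labelled Zfp541-/-, so the libraries mix them differently, and the part of that mix was not tested.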

How the results depend on the processing

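No paired analysis was possible because each genotype has 1 library and the labels carry no replicate numbers. Total-UMI scaling mattered most. By the median of ratios, the share ratio of the library labelled Zfp541-/- over WT was 0.045 in mP, 0.11 in lP, and reversed to -0.10 in eP cluster 12 and -0.24 in cluster 16. With UMIs outside members and mitochondrial genes as denominator it was 0.24, 0.26, 0.078 and 0.12, and thinned to 3000 UMIs 0.19, 0.22, 0.094 and 0.096. In mP it was 0.18 as a mean over cells, 0.19 without the 5% of cells with the most UMIs and 0.20 with clusters at equal weight; in lP the last gave 0.27. In cells of 8000 to 16000 UMIs, added after seeing the data, it was 0.26 in mP and 0.20 in lP; eP had 5 and 7 such WT cells and was not run. Members at least 2-fold higher numbered 1 in mP at 50 CPM and 7 with no filter, and in lP 1 by the median of ratios and 10 with no filter. In cluster 12 they numbered 6 with the other denominator, 1 at 50 CPM and 6 thinned. In cluster 16, 2 were higher and 1 lower by the median of ratios. The lP over Diff.Spg1 share ratio was -0.76 without mitochondrial genes, -0.73 as a mean over cells, -0.61 in cells with at most 5% mitochondrial UMIs (36 of 218 Diff.Spg1 cells) and -0.73 thinned; RS.3 over mP was -1.16 without mitochondrial genes, -1.13 thinned and -1.04 without the 10 elongated spermatid markers in the denominator, the last added after seeing the data. Median-of-ratios scaling was not among the alternatives run on these share ratios, which were -0.71 and -1.14 by total UMIs. It adds 0.60 to every lP over Diff.Spg1 ratio and 1.18 to every RS.3 over mP ratio, leaving member medians of -0.22 and -0.08. The lower shares thus hold by total UMIs only. By the median of ratios lP over Diff.Spg1 had 3 higher and 13 lower members, and RS.3 over mP 1 higher and 10 lower. With no filter RS.3 over mP had 1 higher. By that scaling Rpl36 (0.74), Rpl30 (0.77), Rps29 (0.88) and Rpl22l1 (1.00) reversed there, and Rpl10a in mP reversed to 0.0061 in cells of 8000 to 16000 UMIs. The causes were not tested. Of the main values under alternatives, 105 held, 37 moved and 2 reversed, and of the other values 382 held, 143 moved and 5 reversed. The stage share ratios under median-of-ratios scaling are not in these counts. The WT stages before eP, of 8 to 39 cells, allow no ratio.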

Other observations

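Barcodes without a stage had pooled member shares close to those of annotated cells, but not per barcode in the library labelled Zfp541-/-. The 4219 such barcodes of the WT library, of median depth 4400 UMIs, had a pooled share of 7.19% (7.18 to 7.20%), against 7.76% in annotated cells, and a median per barcode of 6.98%, against 7.93%. The other library had 2747 of them, of median depth 1072 UMIs, with a pooled share of 11.7% (11.7 to 11.7%), against 11.8%. Their median per barcode was 7.58% (5th to 95th percentile 0.964 to 18.1%), against 11.9% in annotated cells.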
